A study of Mus musculus with 8 samples.

Results

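The keratin and keratin-associated genes lie in a few dense clusters of the mouse genome, and their compartment scores were read here in mouse embryonic stem cells (mESCs), which are not known for hair or epidermal keratins. The members were chosen by name. They are the autosomal protein-coding genes of the GENCODE vM21 annotation (mm10) whose symbol is Krt followed by a digit or Krtap. There were 110 such genes of 20807, and their transcription starts fell in 33 of the 23972 bins of 100 kb that were scored in all 8 libraries. Each bin was counted once, under the name of its first gene along the chromosome.

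The scores came from Hi-C, which counts contacts between pairs of loci in fixed nuclei. The first group, Setdb1 WT, was the conditional knockout line #33-6 without 4-hydroxytamoxifen (4-OHT), the drug that triggers deletion of Setdb1 in that line. The second, Setdb1 WT + UNC, was the same line given 2 µM UNC0642, an inhibitor of the H3K9 methyltransferases G9a and GLP, for 3 days. Setdb1 KO received 800 nM 4-OHT for 5 days, and Setdb1 KO + UNC received 800 nM 4-OHT for 2 days and then 2 µM UNC0642 for 3 days. Suv39h WT was the clone ADF1-26 and Suv39h DKO the clone ADF157, which lacks both SUV39H1 and SUV39H2, and each was also grown with 2 µM UNC0642 for 3 days (Suv39h WT + UNC and Suv39h DKO + UNC). All 8 groups were kept in medium with serum, serum replacement and LIF on gelatin, and each held 1 library. Setdb1 WT and Setdb1 KO came from 1 line, in which any effect of 4-OHT itself goes with the deletion. The Suv39h genotypes were clones of their own, and an effect of the clone cannot be told apart from one of the genotype. Cell identity could be read only through compartment scores, which are not RNA levels. The bins of all 9 stem cell markers, Pou5f1 and Nanog among them, scored above 0 in all 8 libraries (38.9% of all scored bins did). Those of the 6 fibroblast markers were 2 above, 3 below and 1 of both signs. The bins of 10 genes of desmosomes and the epidermal envelope, treated below, were also all above 0 in all libraries. A score above 0 therefore does not identify stem cells.

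Keratins are the intermediate filament proteins of epithelial cells. A filament is built from pairs of a type I and a type II keratin, and each epithelium uses its own pairs, such as Krt8 with Krt18 in simple epithelia and the early embryo, Krt5 with Krt14 in the basal layer of the epidermis, and Krt1 with Krt10 above it. Keratin-associated proteins fill the space between keratin filaments in the hair shaft, and their genes are small, are often without introns and lie side by side. A compartment score above 0 marks the A compartment, where active and gene-rich chromatin gathers, and a score below 0 marks the B compartment of inactive chromatin. The score has no unit.

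Type I keratins and one group of keratin-associated genes share a cluster on chromosome 11 (positions 99200001 to 100300000 of mm10), with 50 genes in 11 bins, 27 of them type I keratins and 23 Krtap genes. The type II keratins lie on chromosome 15 (101300001 to 102100000), with 26 genes in 8 bins, of which 25 are type II and 1, Krt18, is type I. Chromosome 16 (88600001 to 89600000) holds 24 Krtap genes in 8 bins. Chromosome 7 (142100001 to 142400000) holds 5 Krtap5 genes in 3 bins, and 5 further Krtap genes lie in 3 bins on chromosomes 1 and 10.

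Promoter sequences of RefSeq (build GRCm38.p6, which shares coordinates with mm10) are shown first because the clusters differ in them. A window from 250 bases before to 50 bases after the start was found within 100 bases of the annotated start for 83 of the 110 members and for 11364 of all 20807 genes. The motif searched was TATAAA. It stood on either strand in 72.3% of the member windows (60 of 83), in 11.7% of all windows and in 35.8% of the 148 windows of olfactory receptor genes, another clustered family. On the sense strand, beginning 40 to 20 bases before the start, it stood in 44 of 83 member windows (53.0%), against 3.28% of all windows and 2.03% of the olfactory receptor windows. The 100 bases before the start are printed for a gene of the highest-scoring bin (Krt18), for a keratin and a Krtap gene of chromosome 11, for both genes of the lowest bin, on chromosome 16, and for a gene of chromosome 7, 5′ to 3′ on the gene's strand, with TATAAA in capitals:

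Krt18 (chr15:102028080-102028179, plus strand): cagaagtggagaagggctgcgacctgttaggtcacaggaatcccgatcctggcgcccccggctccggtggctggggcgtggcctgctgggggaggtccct

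Krt10 (chr11:99389365-99389464, minus strand): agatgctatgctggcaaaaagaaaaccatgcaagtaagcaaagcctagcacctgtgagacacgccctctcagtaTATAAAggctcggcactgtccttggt

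Krtap4-9 (chr11:99785100-99785199, plus strand): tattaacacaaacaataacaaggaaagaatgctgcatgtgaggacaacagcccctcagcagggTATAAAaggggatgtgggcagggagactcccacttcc

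Krtap19-9b (chr16:88932266-88932365, minus strand): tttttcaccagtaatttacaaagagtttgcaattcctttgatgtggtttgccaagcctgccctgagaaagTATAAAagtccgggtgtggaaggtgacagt

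Krtap16-3 (chr16:88962874-88962973, minus strand): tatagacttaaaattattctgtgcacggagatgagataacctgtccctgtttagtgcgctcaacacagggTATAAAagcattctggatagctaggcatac

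Krtap5-5 (chr7:142229972-142230071, minus strand): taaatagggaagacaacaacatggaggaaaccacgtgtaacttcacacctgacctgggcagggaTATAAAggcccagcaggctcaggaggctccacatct

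The keratin-associated promoters carried the motif most often on chromosome 11, where 17 of 21 windows had it at that position (81.0%), followed by 3 of 5 on chromosome 7 and 10 of 22 on chromosome 16. Of the chromosome 15 windows, 3 of 14 had it there. The window of Krt18 had no TATAAA, and its 100 printed bases hold 6 CpG dinucleotides against 0 to 2 in the other sequences printed. Only 3 of the 83 member windows (3.61%) held 10 or more CpG dinucleotides, against 63.6% of all windows, and none of the 50 Krtap windows did. Krtap5-5, with the motif, lay in a bin of the A compartment in all 8 libraries, and Krtap16-3, also with it, in a bin of the B compartment in all 8. A match describes the letters of the window and says nothing of factor binding.

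In these cells the clusters on chromosomes 15 and 7 had scores above 0 on average and those on chromosomes 16 and 11 below 0, the last close to 0. Of the 33 member bins, 14 were in the A compartment in all 8 libraries (38.9% of all scored bins were), 12 were in B in all 8 (48.0% of all bins) and 7 had both signs (13.0% of all bins). Counted by gene, 38 of the 110 were A in all libraries, 43 were B in all and 29 had both signs. These genes lay in the same 14, 12 and 7 bins, and genes that share a bin share its score. The bin counts depend on the centring described below: with the implied chromosome constant added back they were 17 A, 8 B and 8 of both signs, and with it subtracted once more 14, 16 and 3. Library by library, the Setdb1 WT nuclei had 17 member bins in A without UNC0642 (44.5% of all bins) and 17 with it (44.7%), and the Setdb1 KO nuclei 15 (44.7%) and 15 (44.6%). The Suv39h WT nuclei had 19 without it (44.8%) and 17 with it (45.2%), and the Suv39h DKO nuclei 19 (46.0%) and 18 (46.3%). Every member bin holds a protein-coding gene start, and of the 10037 scored bins that do, between 6935 (69.1%, in Suv39h WT) and 7130 (in Setdb1 KO + UNC) were in A, a higher share in each library than the 45.5% to 57.6% of member bins. By type, of the 25 type II keratins, 23 were A in all libraries and 0 were B in all, while of the 57 Krtap genes 41 were B in all, 8 were A in all and 8 had both signs. Of the 28 type I keratins, 7 were A in all, 2 were B in all and 19 had both signs. Counts by gene and by type repeat the score of a bin for each of its genes. They depend on the centring as the bin counts do, and no share over all protein-coding genes is given beside them.

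In what follows the values of a bin or cluster are given in 1 order, WT, WT + UNC, KO and KO + UNC for the Setdb1 line and WT, WT + UNC, DKO and DKO + UNC for the Suv39h clones. The mean score of the 8 type II keratin bins was 0.0222, 0.0310, 0.0228 and 0.0201 in the Setdb1 libraries and 0.0247, 0.0259, 0.0270 and 0.0275 in the Suv39h libraries. The 3 Krtap5 bins of chromosome 7 averaged 0.0238, 0.0196, 0.0268 and 0.0253 in the Setdb1 libraries and 0.0220, 0.0212, 0.0206 and 0.0225 in the Suv39h libraries. Both clusters were thus above 0 in every library, and their ranges over the libraries overlapped.

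The 8 Krtap bins of chromosome 16 averaged -0.0223, -0.0193, -0.0232 and -0.0219 in the Setdb1 libraries and -0.0191, -0.0202, -0.0195 and -0.0181 in the Suv39h libraries. The 11 bins of chromosome 11 averaged -0.00867, -0.00412, -0.00847 and -0.00816 in the Setdb1 libraries and -0.00213, -0.000638, -0.00177 and -9.74e-05 in the Suv39h libraries. The chromosome 16 mean was below the chromosome 11 mean in all 8 libraries, and the chromosome 11 mean was itself close to 0. These scores average 0 over each chromosome in each library, and an unknown constant may have been subtracted from each chromosome, so a level close to 0 has no firm sign. For chromosome 11 the constant implied by the values was 0.00510 to 0.00712, as large as the cluster mean, and with it added back the mean over libraries was 0.00155 in place of -0.00426. Differences between bins of 1 chromosome are free of it.

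**Figure D1:**
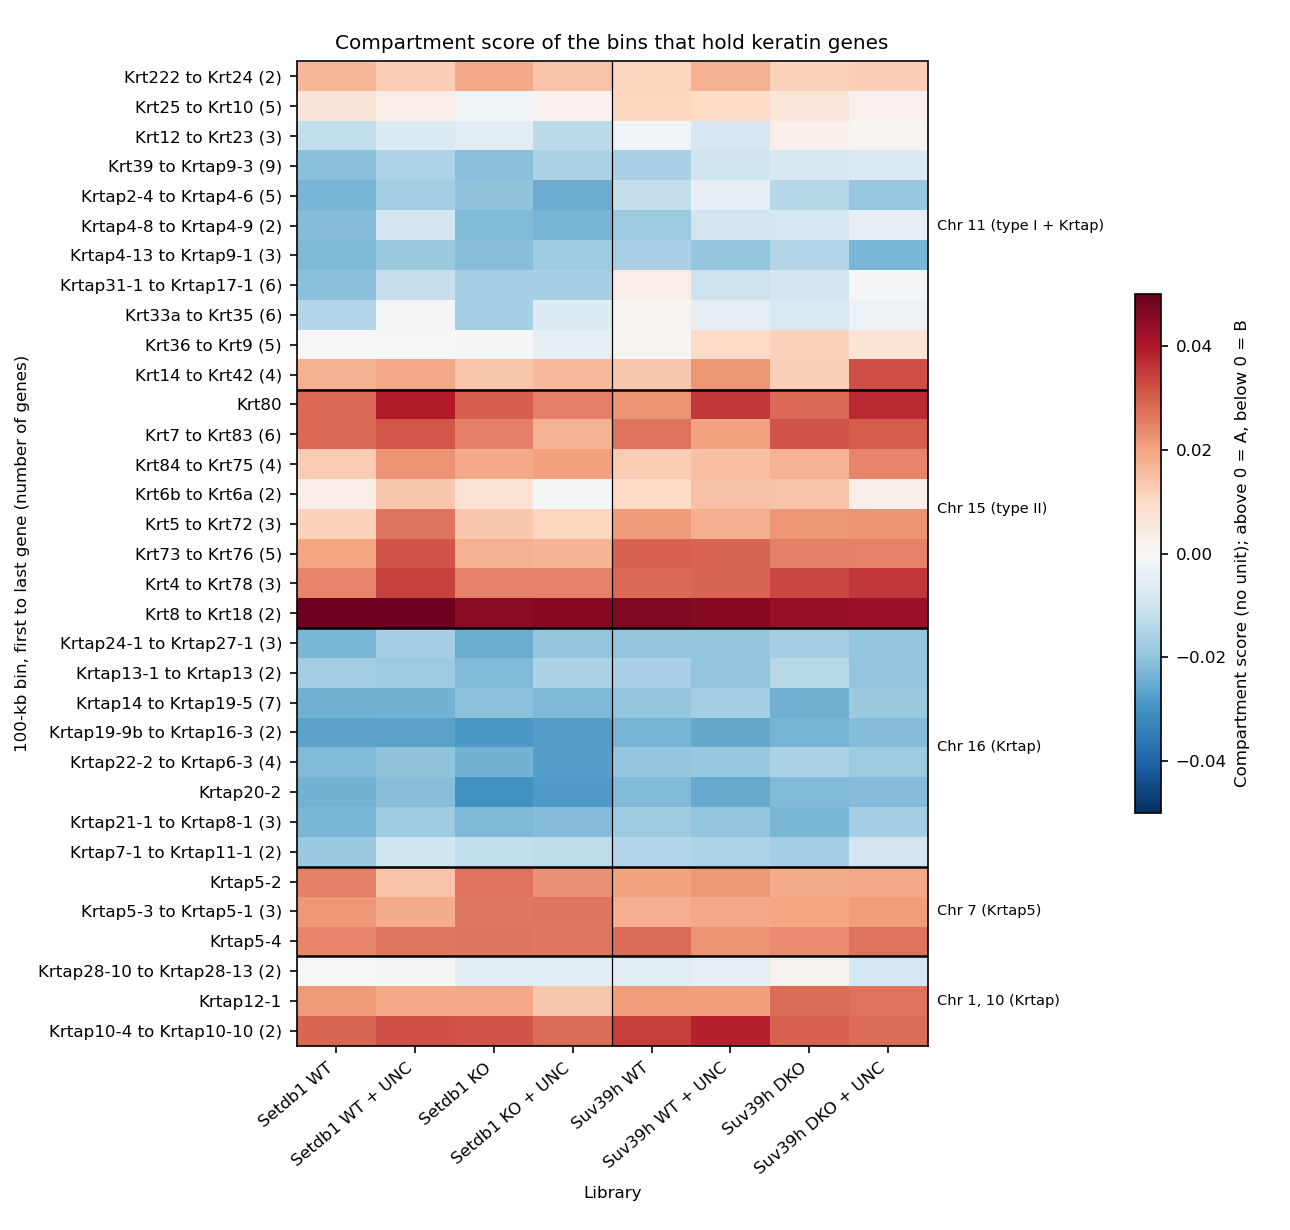
Compartment score (colour, no unit) of the 33 bins that hold keratin or keratin-associated genes (rows, in chromosome order, named by first and last gene, with the number of genes) in the 8 libraries (columns). The chromosome 15 and chromosome 7 bins were above 0 except the Krt6b bin in Setdb1 KO + UNC, the 8 chromosome 16 bins were below 0 in all libraries, and the chromosome 11 bins went from above 0 to below 0 and back.

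Along the chromosome 11 cluster the scores formed a trough centred on the Krtap genes. At its outer end the bin of Krt222 and Krt24, which also holds the start of Smarce1, the gene of a chromatin remodelling subunit, was above 0 in all 8 libraries, between 0.0112 and 0.0188. The next bin holds Krt25 to Krt28, keratins of the inner root sheath of the hair follicle, together with Krt10, the type I keratin of the upper epidermis. It scored 0.00657, 0.00348, -0.00216 and 0.00229 in the Setdb1 libraries and 0.0109, 0.0101, 0.00624 and 0.00228 in the Suv39h libraries. It was below 0 in Setdb1 KO alone.

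The bin of Krt12, a keratin of the cornea, Krt20, found in the gut lining, and Krt23 scored -0.0122, -0.00708, -0.00521 and -0.0130 in the Setdb1 libraries and -0.00214, -0.00833, 0.00239 and 0.000970 in the Suv39h libraries. It was above 0 in the Suv39h DKO pair and below 0 in the other 6 libraries. Further in lay the 5 bins with Krtap genes, 4 of them below 0 in all 8 libraries. The first holds Krt39, Krt40 and the Krtap3 and Krtap1 genes, and scored -0.0210, -0.0153, -0.0210 and -0.0157 in the Setdb1 libraries and -0.0161, -0.00977, -0.00810 and -0.00668 in the Suv39h libraries. The bin of Krtap2-4, Krtap4-1, Krtap4-2, Krtap4-7 and Krtap4-6 scored -0.0231, -0.0173, -0.0203 and -0.0247 in the Setdb1 libraries and -0.0120, -0.00420, -0.0143 and -0.0188 in the Suv39h libraries. The bin of Krtap4-8 and Krtap4-9, whose promoter is printed above, scored -0.0215, -0.00953, -0.0220 and -0.0232 in the Setdb1 libraries and -0.0183, -0.00965, -0.00895 and -0.00437 in the Suv39h libraries. The last 2 of these bins spanned wide ranges, from -0.0247 to -0.00420 and from -0.0232 to -0.00437. The bin of Krtap4-13, Krtap4-16 and Krtap9-1 had the lowest mean of the cluster, -0.0191 ± 0.00298 (SD over 8 libraries).

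That Krtap4-13 bin scored -0.0226, -0.0186, -0.0214 and -0.0176 in the Setdb1 libraries and -0.0161, -0.0195, -0.0146 and -0.0227 in the Suv39h libraries. The last Krtap bin, of Krtap31-1 to Krtap17-1, scored -0.0208, -0.0116, -0.0166 and -0.0168 in the Setdb1 libraries and 0.00320, -0.0107, -0.00937 and -0.000493 in the Suv39h libraries. It had the widest range of any member bin, 0.0240, and was above 0 in Suv39h WT alone. The bin of the hair shaft keratins Krt31 to Krt35 was next, and scored -0.0148, -0.000861, -0.0165 and -0.00690 in the Setdb1 libraries and 0.00155, -0.00443, -0.00751 and -0.00286 in the Suv39h libraries. It too was above 0 in Suv39h WT alone.

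The bin of Krt36, Krt13, Krt15, Krt19 and Krt9 scored -0.000296, 0.000122, -0.000819 and -0.00490 in the Setdb1 libraries and 0.000859, 0.00944, 0.0114 and 0.00701 in the Suv39h libraries. Krt19 belongs to simple epithelia, Krt13 to the lining of the mouth and oesophagus, Krt15 to basal cells and Krt9 to foot pads. The bin was closest to 0 in Setdb1 WT, Setdb1 WT + UNC, Setdb1 KO and Suv39h WT, lower in Setdb1 KO + UNC and higher in the other 3 Suv39h libraries. The far end of the cluster, with Krt14 of the basal epidermis and the injury-associated Krt16 and Krt17, had the highest mean of the cluster and scored 0.0176, 0.0190, 0.0139 and 0.0163 in the Setdb1 libraries and 0.0137, 0.0220, 0.0119 and 0.0323 in the Suv39h libraries. The library Suv39h DKO + UNC stood above the other 7 there.

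The 5 Krtap bins averaged -0.0150 over libraries and the 6 bins with keratin but no Krtap genes 0.00473. The difference, Krtap minus these keratin bins, was -0.0240, -0.0190, -0.0216 and -0.0210 in the Setdb1 libraries and -0.0179, -0.0185, -0.0170 and -0.0193 in the Suv39h libraries. It was below 0 in all 8 libraries and does not depend on the centring of the scores. The longest unbroken run of B bins in the cluster measured 800, 700, 900 and 800 kb in the Setdb1 libraries and 500, 700, 600 and 600 kb in the Suv39h libraries. In each library the run included the Krtap2-4, Krtap4-8 and Krtap4-13 bins. These runs depend on the centring: with the implied constant added back the run in Suv39h DKO + UNC was 100 kb, and 1 in place of 4 of the 5 Krtap bins was in B in all 8 libraries.

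The neighbourhood of the chromosome 11 cluster was in the A compartment on both sides. In the 1 Mb before it the mean score was 0.0358 and in the 1 Mb after it 0.0380, with 10 of 10 bins A in all libraries on each side. The cluster minus its flanks was -0.0466, -0.0423, -0.0467 and -0.0454 in the Setdb1 libraries and -0.0370, -0.0364, -0.0376 and -0.0373 in the Suv39h libraries. Of the 4 clusters this was the deepest departure from both flanks together, -0.0412 on average. Bins of a cluster are neighbours and not independent, so the comparisons between a cluster and its flanks are descriptions without a test.

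**Figure D2:**
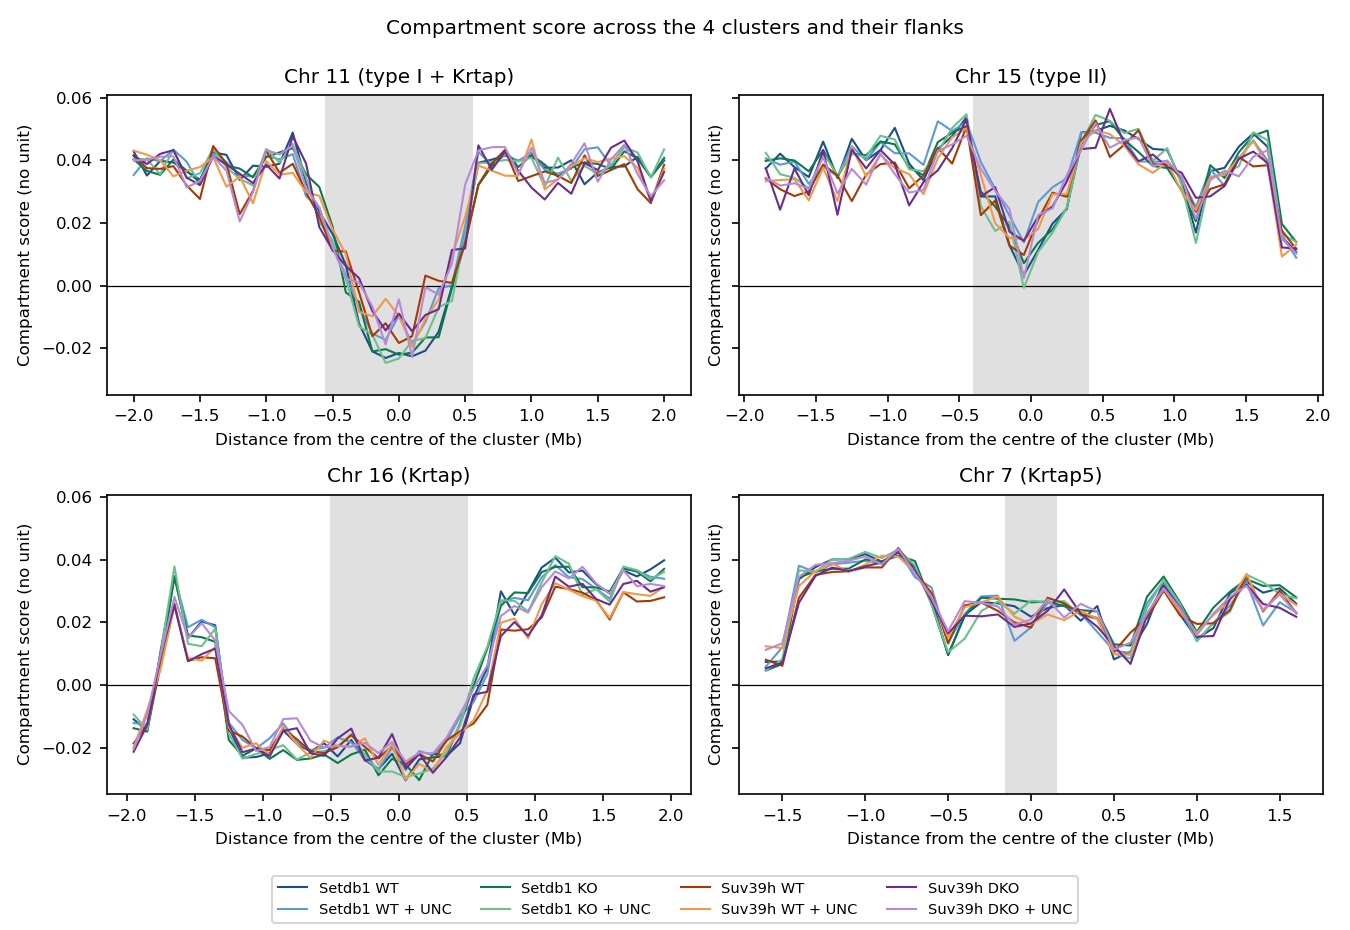
Compartment score (no unit) of 100-kb bins against distance from the centre of each cluster (Mb), 1 line per library, with the cluster shaded. Chromosome 11 dips below 0 between A flanks, chromosome 15 dips and stays above 0 apart from the Krt6b bin in Setdb1 KO + UNC, chromosome 16 sits at the edge of a B domain, and chromosome 7 lies within A.

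The type II keratin cluster on chromosome 15 had a shallower dip. Its flanks averaged 0.0406 before and 0.0394 after, and its own mean was 0.0252, so that the cluster minus its flanks was -0.0198, -0.0106, -0.0182 and -0.0219 in the Setdb1 libraries and -0.0135, -0.0126, -0.0114 and -0.0108 in the Suv39h libraries. All 8 differences were below 0. The bottom of the dip was the bin of Krt6b and Krt6a, keratins of the companion layer of the hair follicle and of wounded skin, which scored 0.00339, 0.0138, 0.00715 and -0.000746 in the Setdb1 libraries and 0.00979, 0.0147, 0.0143 and 0.00241 in the Suv39h libraries. It was the lowest bin of the cluster in all 8 libraries and below 0 in Setdb1 KO + UNC alone.

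From there the scores were higher in both directions. The bin of Krt5, the basal partner of Krt14, and the root sheath keratins Krt71 and Krt72 scored 0.0114, 0.0267, 0.0137 and 0.0108 in the Setdb1 libraries and 0.0211, 0.0181, 0.0221 and 0.0225 in the Suv39h libraries. The bin of Krt73, Krt2, Krt1, Krt77 and Krt76, which includes Krt1, the epidermal partner of Krt10, scored 0.0198, 0.0314, 0.0180 and 0.0169 in the Setdb1 libraries and 0.0297, 0.0292, 0.0253 and 0.0247 in the Suv39h libraries. Setdb1 WT + UNC had the highest score of the 8 libraries in both.

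On the outer side, the bin of Krt80 scored 0.0284, 0.0395, 0.0301 and 0.0254 in the Setdb1 libraries and 0.0225, 0.0353, 0.0285 and 0.0373 in the Suv39h libraries. The bin of Krt7, of simple and ductal epithelia, with the hair keratins Krt81, Krt83, Krt86 and Krt87 and with Krt88, scored 0.0285, 0.0309, 0.0252 and 0.0174 in the Setdb1 libraries and 0.0271, 0.0199, 0.0314 and 0.0303 in the Suv39h libraries. The lowest score of this bin was that of Setdb1 KO + UNC.

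The bin of Krt8 and Krt18, which also holds the start of Eif4b, a translation factor gene, scored 0.0489, 0.0489, 0.0452 and 0.0456 in the Setdb1 libraries and 0.0462, 0.0456, 0.0436 and 0.0433 in the Suv39h libraries. It was the highest member bin in all 8 libraries and the steadiest of the chromosome 15 bins, with an SD of 0.00210. It exceeded the mean of the other 7 bins of its cluster by 0.0180 to 0.0305. Krt18 is the only type I keratin of the cluster and lies at its edge, beside the A flank.

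The chromosome 16 Krtap cluster lay at the end of a B domain. The 1 Mb before it averaged -0.0121 with 8 of 10 bins B in all libraries, and the 1 Mb after it averaged 0.0231 with 8 of 10 bins A in all libraries. All 10 bins between the first and the last Krtap gene were B in all 8 libraries, including 2 without a member gene start. The cluster minus the flank after it was -0.0489, -0.0444, -0.0501 and -0.0483 in the Setdb1 libraries and -0.0366, -0.0389, -0.0389 and -0.0428 in the Suv39h libraries, and minus the flank before it the difference was between -0.0107 and -0.00625. The cluster was thus below both sides in all 8 libraries, and further below the side that follows it.

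The bin of Krtap19-9b and Krtap16-3, whose promoters are printed above, had the lowest mean of all member bins and scored -0.0269, -0.0269, -0.0288 and -0.0277 in the Setdb1 libraries and -0.0234, -0.0255, -0.0232 and -0.0218 in the Suv39h libraries. The highest bin of the cluster, of Krtap7-1 and Krtap11-1, lies at the edge next to the A flank and scored -0.0186, -0.0101, -0.0124 and -0.0127 in the Setdb1 libraries and -0.0148, -0.0154, -0.0168 and -0.00926 in the Suv39h libraries. The 2 bins did not overlap over the libraries. Of the 24 genes, 15 belong to the glycine- and tyrosine-rich families Krtap6, Krtap7, Krtap8 and Krtap19 to Krtap22, and their 6 bins were B in all libraries like the rest of the cluster.

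The Krtap5 genes of chromosome 7 encode cysteine-rich hair proteins and were in A, unlike the Krtap genes of chromosomes 11 and 16. The bin of Krtap5-2 scored 0.0251, 0.0141, 0.0273 and 0.0227 in the Setdb1 libraries and 0.0199, 0.0218, 0.0185 and 0.0192 in the Suv39h libraries. The bin of Krtap5-3, Krtap5-5 and Krtap5-1 scored 0.0218, 0.0184, 0.0264 and 0.0269 in the Setdb1 libraries and 0.0183, 0.0194, 0.0196 and 0.0209 in the Suv39h libraries. The bin of Krtap5-4, which it shares with the starts of Ctsd, the gene of a lysosomal protease, and Ifitm10, scored 0.0245, 0.0263, 0.0266 and 0.0264 in the Setdb1 libraries and 0.0278, 0.0225, 0.0236 and 0.0273 in the Suv39h libraries. The 3 bins overlapped each other over the libraries, and no order among them held. Their flanks averaged 0.0312 before and 0.0207 after, with 10 of 10 bins A in all libraries on each side, and the cluster minus both flanks was only -0.00654 to -0.000182.

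The 5 Krtap genes outside the clusters were split. The bin of Krtap28-10 and Krtap28-13 on chromosome 1 (83000001 to 83100000) scored 0.000262, -0.000738, -0.00551 and -0.00557 in the Setdb1 libraries and -0.00581, -0.00451, 0.00168 and -0.00878 in the Suv39h libraries. It was above 0 in Setdb1 WT and Suv39h DKO and below 0 in the other 6. The bin of Krtap12-1 on chromosome 10 (77700001 to 77800000) scored 0.0211, 0.0194, 0.0193 and 0.0134 in the Setdb1 libraries and 0.0210, 0.0210, 0.0281 and 0.0272 in the Suv39h libraries. Its neighbour, with Krtap10-4 and Krtap10-10, scored 0.0287, 0.0322, 0.0314 and 0.0281 in the Setdb1 libraries and 0.0347, 0.0388, 0.0295 and 0.0280 in the Suv39h libraries. Both chromosome 10 bins were above 0 in all libraries.

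Genes that work with keratins in the epidermis served as a comparison. The 45 listed genes of the epidermal differentiation complex on chromosome 3, which encodes cornified envelope and filament-aggregating proteins, lie in 14 bins. Genes that share a bin share its score. Of the 45, 37 were in bins that were B in all libraries, 4 in bins that were A in all and 4 in bins of both signs. Lor, the gene of loricrin, and Ivl, the gene of involucrin, were among the 37, with mean scores of -0.0109 and -0.0201. By contrast, all 10 listed genes of desmosomes, envelope proteins and transglutaminases were A in all libraries. They include Dsp (desmoplakin), Jup (plakoglobin) and Tgm1 (transglutaminase 1). Of 15 listed regulators of epidermis and hair, Grhl2 and Hoxc13 among them, 14 were A in all. The exception was Trp63, the master regulator of stratified epithelia, which was above 0 in 2 of 8 libraries. Of all scored bins, 38.9% were A in all libraries. Of bins with a protein-coding gene start, 69.1% were A in Suv39h WT, the lowest share of the 8 libraries. The list of 10 was a choice and leaves out the desmoglein and desmocollin genes. The bins of Jup and Hoxc13 lie in the A flanks of the chromosome 11 and chromosome 15 clusters.

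Other clustered and tissue-restricted families gave a scale for the keratin levels. The 333 bins of olfactory receptor genes averaged -0.0162 and the 22 defensin bins -0.00909. The chromosome 16 Krtap mean (-0.0205) lay below both in the average over libraries, the chromosome 11 mean between the defensin bins and 0 (but below the defensin bins in Setdb1 WT, Setdb1 KO and Setdb1 KO + UNC), and the chromosome 15 and chromosome 7 means well above. The mean over the 10037 bins with any protein-coding gene start was 0.0153. These sets do not come from 1 chromosome, so their order is not free of the centring described above. On chromosome 16 the constant implied by the values was 0.00861 to 0.0112 over the libraries.

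**Figure D3:**
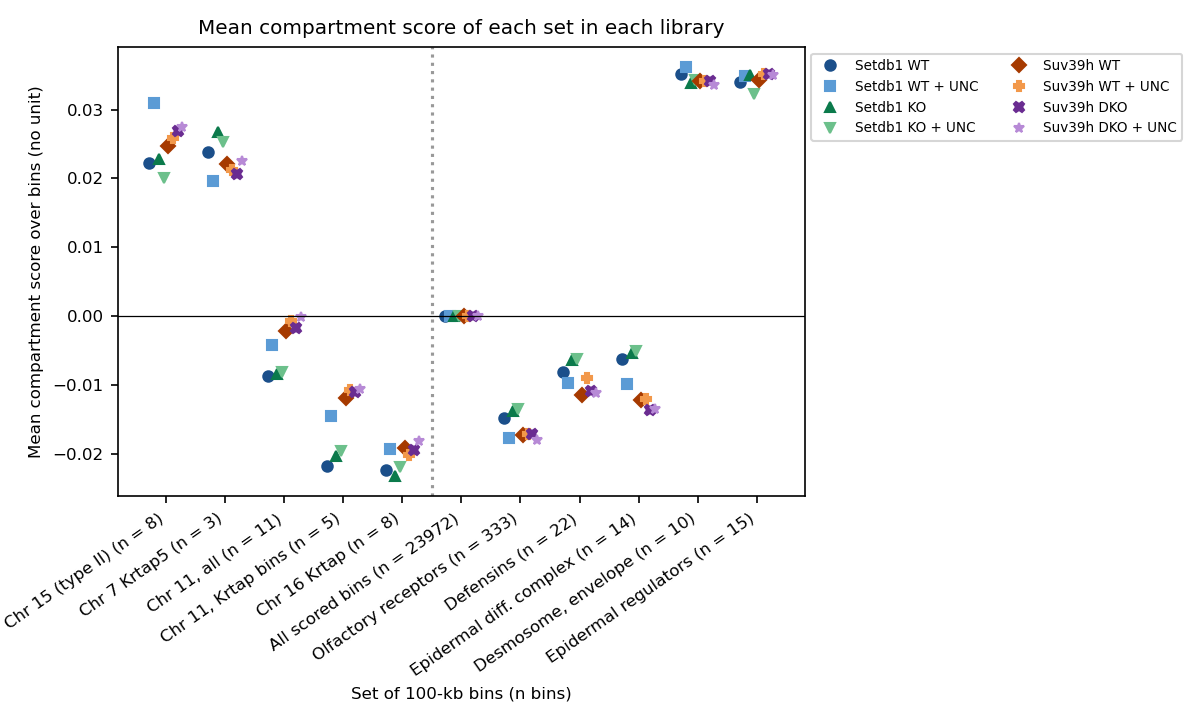
Mean compartment score (no unit) over the bins of each set, 1 point per library. The chromosome 15 and chromosome 7 sets lie between 0.0196 and 0.0310 in all libraries and the chromosome 16 set between -0.0232 and -0.0181, below the olfactory receptor set in each library. In Suv39h DKO + UNC the chromosome 16 mean was -0.0181 and the olfactory receptor mean -0.0179. The sets do not come from 1 chromosome, so this order is not free of a constant that may have been subtracted from each chromosome.

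Base composition ran alongside these levels. The median GC content was 48.9% for the chromosome 15 bins, 46.6% for chromosome 7, 43.8% for chromosome 11 and 38.8% for chromosome 16, against 41.4% for all scored bins. Within chromosome 11 the Krtap bins had a median of 42.2%, the 3 keratin bins at the Krt222 end 44.3% and the 3 at the Krt14 end 48.8%. The mean scores of the keratin bins at the 2 ends were 0.00458 and 0.00489 over all libraries, and between 0.00123 and 0.00668 and between -0.00112 and 0.0121 in single libraries. Across the 33 member bins the mean score went with GC content (Pearson r 0.879, Spearman rho 0.901), and across all 23972 bins likewise (r 0.770, rho 0.786). Bins of a cluster share neighbours and composition, so these coefficients describe bins and carry no p. The number of protein-coding gene starts did not follow the score in the members (r -0.101, against 0.447 over all bins), although member bins held 5.36 starts on average against 0.864 over all bins. The CpG ratio, observed over that from base composition, had r 0.0712 with score in the members and 0.687 over all bins.

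**Figure D4:**
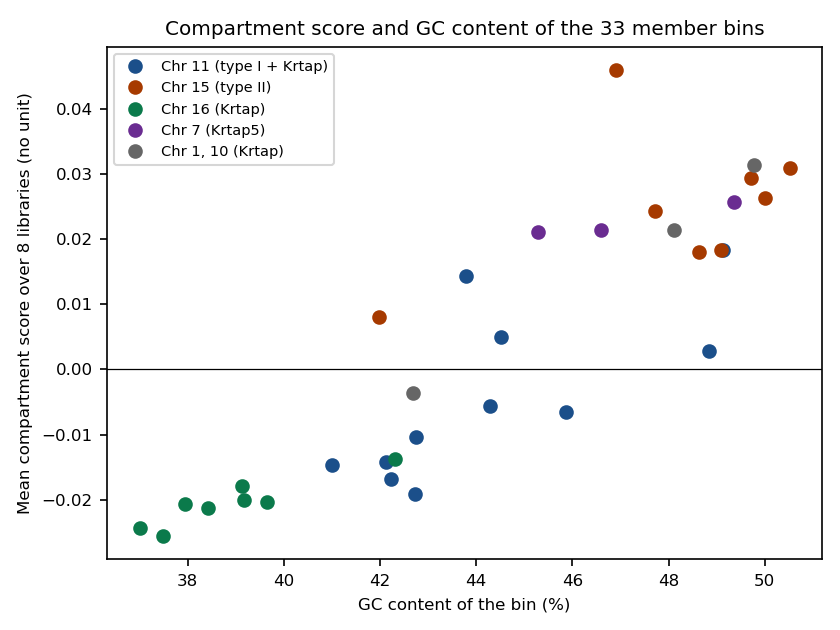
Mean compartment score over 8 libraries (no unit) against GC content (%) of the 33 member bins, coloured by cluster. The chromosome 16 bins lie between 37.0% and 42.3% GC and below 0, and the chromosome 15 bins between 42.0% and 50.5% and above 0, with the Krt8 bin (0.0459) above bins of like GC content.

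UNC0642 gave no call among the members. In limma with Benjamini-Hochberg adjustment over all bins, 0 of 23972 bins passed an adjusted p under 0.05 (0.0%), and the lowest adjusted p of a member was 0.957. At an unadjusted p under 0.05, 5 of 33 member bins were higher with UNC0642 and 0 lower, against 2.30% higher and 2.65% lower over all bins. Those were the bins of Krt39, Krtap4-8, Krt14, Krt80 and Krt84. The Krt14 bin had the greatest fitted difference, 0.00812 ± 0.00298 (SE, 4 pairs of libraries, adjusted p = 0.957 in limma), and the Krt80 bin followed with 0.00698 ± 0.00282. The lowest were the Krt7 bin, -0.00343 ± 0.00225, and the Krtap5-2 bin, -0.00325 ± 0.00242.

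Counted over pairs, the bins of Krt39, Krt14, Krt84 and Krt4 were higher with UNC0642 in all 4 backgrounds (4 of 33, against 6.79% of all bins) and no member bin was lower in all 4 (5.94% of all bins). In total 19 of 33 fitted differences were above 0, against 50.6% of all bins, and the median was 0.000501 against 3.82e-05. With the implied constant added back 23 of 33 were above 0 (57.9% of all bins), and with it subtracted again 16 (43.4%). The unadjusted count of 5 higher and 0 lower moved with single libraries: without Setdb1 WT or Setdb1 WT + UNC it was 1 higher and 2 lower (2.61% and 2.97% of all bins), without either Suv39h WT library 2 and 0 (1.85% and 2.20%), and without either Suv39h DKO library 1 and 0 (1.89% and 2.05%). Without Setdb1 KO or Setdb1 KO + UNC the count was 4 higher and 0 lower (3.14% and 3.43%). The simulated data showed what this fit could see: of 200 bins altered by 0.02 it recovered 98.0%, with 16 false calls, and of 200 altered by 0.01 it recovered 0%. The fitted difference at Krt14 was smaller than 0.01. The simulation gave every background the same shift with independent noise, while in the data the differences with UNC0642 varied between backgrounds. These recovery rates therefore hold for the simulated setting.

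**Figure D5:**
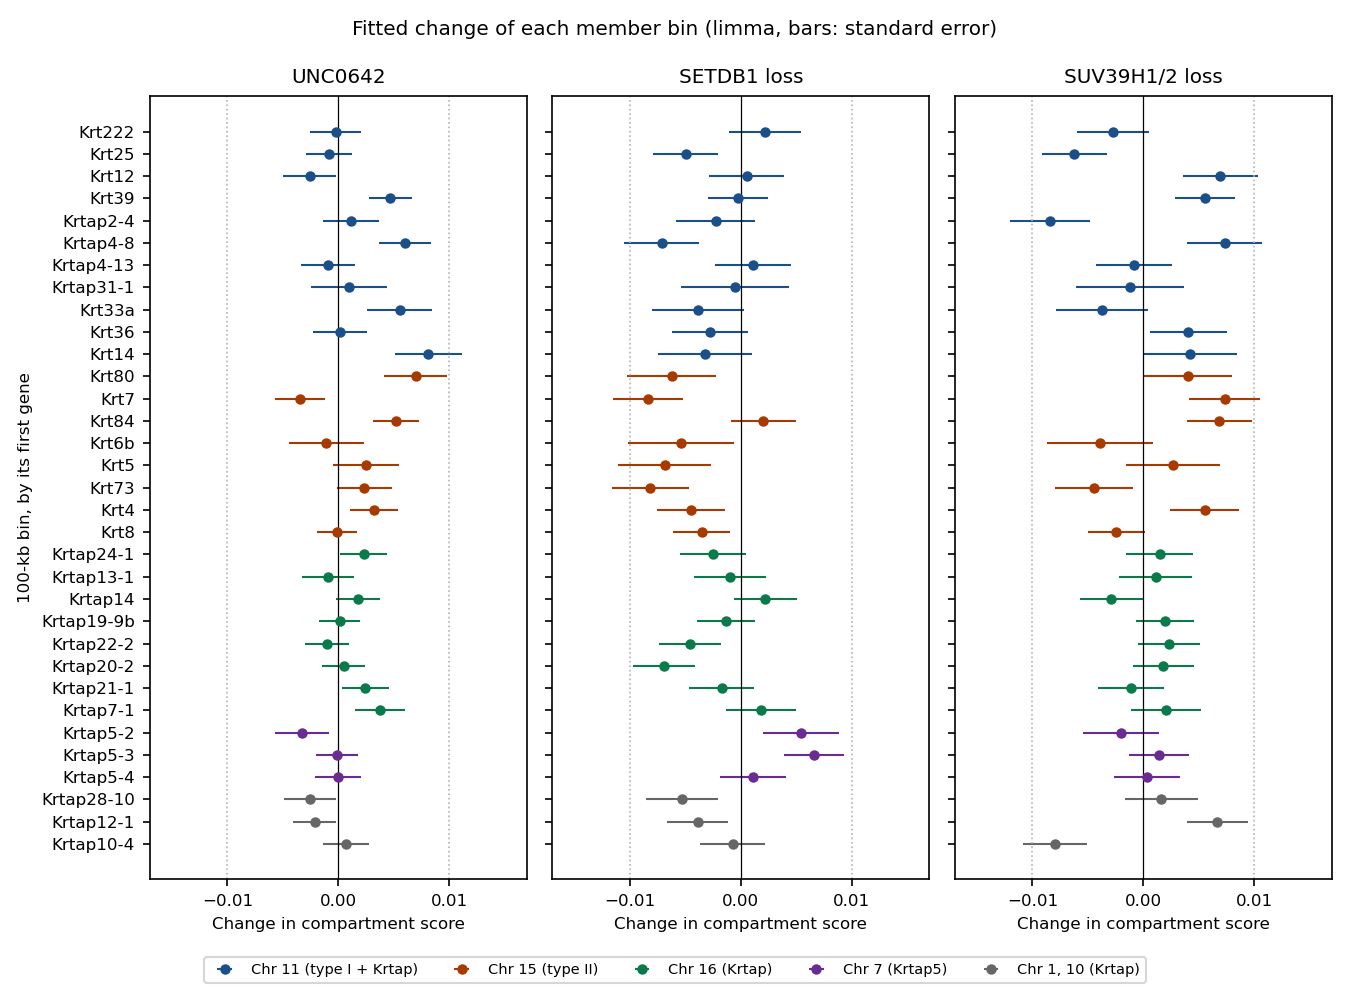
Fitted difference in compartment score (no unit, bars: standard error) of each member bin for UNC0642, loss of SETDB1 and loss of SUV39H1/2, coloured by cluster, with dotted lines at 0.01 either way. All 33 bins stay within 0.01 of 0 in all 3 comparisons, and 7 of 8 chromosome 15 bins are below 0 for SETDB1.

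The pairs with and without UNC0642, 1 library a side, are given background by background without a test. Between Setdb1 WT + UNC and Setdb1 WT, 7 of 33 member bins differed by at least 0.01 (8.13% of all bins), 6 of them higher (3.51%) and 1 lower (4.62%). The higher ones were the Krt5 bin (0.0153), the Krt33a bin (0.0139), the Krtap4-8 bin (0.0120), the Krt73 bin (0.0116), the Krt80 bin (0.0110) and the Krt6b bin (0.0104), and the lower one was the Krtap5-2 bin (-0.0110). Between Setdb1 KO + UNC and Setdb1 KO, 0 of 33 did (1.69% of all bins). Between Suv39h WT + UNC and Suv39h WT, 2 of 33 did (4.79% of all bins), the Krt80 bin (0.0128) and the Krtap31-1 bin (-0.0139). Between Suv39h DKO + UNC and Suv39h DKO, 3 of 33 did (6.73% of all bins), the Krt14 bin (0.0204), the Krt6b bin (-0.0119) and the Krtap28-10 bin (-0.0105).

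Whether UNC0642 acted unlike in the Setdb1 and Suv39h lines was tested by a line by UNC0642 term in limma. No bin of 23972 passed (0, or 0.0%), and the lowest adjusted p of a member in limma was 0.9997. By the unadjusted limma p, with the same threshold as above, 1 member bin had a higher UNC0642 difference in the Suv39h line, Krt14, and 2 a lower one, Krt33a and Krtap4-13, against 1.86% and 1.81% of all bins. The fitted interaction was 0.0125 ± 0.00480 at Krt14 and -0.0124 ± 0.00472 at Krt33a.

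Loss of SETDB1 likewise gave 0 calls over all bins (0.0%), with a lowest adjusted p of 0.483 among members by limma (2 libraries against 2). At an unadjusted p under 0.05 the Krtap5-3 bin was higher (0.00656 ± 0.00270, against 5.16% of all bins higher), and the bins of Krt7 (-0.00835 ± 0.00318), Krt73 (-0.00817 ± 0.00348) and Krtap20-2 (-0.00693 ± 0.00275) were lower (3.94% of all bins). The Krtap5-2 bin had the next highest value, 0.00542 ± 0.00342. By cluster, 7 of 8 chromosome 15 bins had a fitted difference below 0 and 3 of 3 chromosome 7 bins one above 0, and over the members 9 of 33 were above 0 against 46.7% of all bins. In both pairs, without and with UNC0642, 6 of 33 member bins were higher after loss of SETDB1 (25.0% of all bins) and 15 lower (29.4%), and the 6 included all 3 Krtap5 bins. The simulated test recovered 78.5% of SETDB1 differences of 0.02, with 5 false calls, and 0% of those of 0.01.

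This tilt of the chromosome 15 bins was set by both UNC0642-treated Setdb1 libraries, Setdb1 WT + UNC with the highest chromosome 15 mean of all 8 and Setdb1 KO + UNC with the lowest. Between Setdb1 KO and Setdb1 WT, 3 of 8 chromosome 15 bins were lower (51.4% of all bins were) and 0 of the 33 member bins differed by at least 0.01 (2.28% of all bins). Between Setdb1 KO + UNC and Setdb1 WT + UNC, 8 of 8 chromosome 15 bins were lower (52.9% of all bins were), and 6 member bins differed by at least 0.01 (12.9% of all bins), all lower (5.79%): Krt5 (-0.0160), Krt6b (-0.0146), Krt73 (-0.0145), Krt80 (-0.0141), Krtap4-8 (-0.0137) and Krt7 (-0.0134). Between Setdb1 KO + UNC and Setdb1 WT, 6 of 8 chromosome 15 bins were lower (50.8% of all bins were), with a mean difference of -0.00213 over the 8, and 1 member bin differed by at least 0.01, the Krt7 bin, which was lower (-0.0110, against 2.64% of all bins either way and 1.18% lower). Without Setdb1 WT + UNC, 15 of 33 fitted SETDB1 differences were above 0 (48.8% of all bins) and the lowest adjusted p of a member was 0.9996. Without Setdb1 WT, which leaves Setdb1 WT + UNC as the only control, 5 of 33 were above 0 (46.9% of all bins) and the lowest adjusted p of a member was 0.0616, while 448 bins of the whole table passed. Without Setdb1 KO + UNC, 14 of 33 were above 0 (48.1% of all bins), and without Setdb1 KO 6 of 33 (47.2%).

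Loss of SUV39H1/2 gave 0 calls over all bins (0.0%) and a lowest adjusted p of 0.440 among members by limma. At an unadjusted p under 0.05 the bins of Krt7 (0.00733 ± 0.00318), Krt84 (0.00684 ± 0.00294) and Krtap12-1 (0.00665 ± 0.00275) were higher (4.76% of all bins), and those of Krtap2-4 (-0.00843 ± 0.00358) and Krtap10-4 (-0.00797 ± 0.00292) lower (4.85% of all bins). The Krtap4-8 bin had 0.00731 ± 0.00336. The 2 keratin-associated bins of chromosome 10 are neighbours and had opposite signs. In total 20 of 33 fitted differences were above 0 (50.5% of all bins). In both pairs, without and with UNC0642, 15 of 33 member bins were higher in the Suv39h DKO libraries (28.6% of all bins) and 7 lower (27.4%). Leaving out 1 library at a time put the unadjusted count between 1 and 5 higher (2.97% to 5.57% of all bins) and between 0 and 2 lower (3.16% to 5.65%). With the implied constant subtracted again it was 0 higher and 2 lower (3.69% and 5.56%).

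Between Suv39h DKO and Suv39h WT, 2 of 33 member bins differed by at least 0.01 (7.38% of all bins), the Krt36 bin (0.0105) and the Krtap31-1 bin (-0.0126). Between Suv39h DKO + UNC and Suv39h WT, 4 did (9.8% of all bins), all higher (4.53%): Krt14 (0.0186), Krt80 (0.0148), Krtap4-8 (0.0139) and Krt84 (0.0117). Between Suv39h DKO + UNC and Suv39h WT + UNC, 6 did (6.84% of all bins), with Krt7, Krt14 and Krtap31-1 higher (3 of 33, against 2.98%) and Krt6b, Krtap2-4 and Krtap10-4 lower (3 of 33, against 3.86%). These comparisons share libraries, and each rests on 1 library a side.

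The untreated libraries of the 2 lines differed at members about as often as over all bins. Between Suv39h WT and Setdb1 WT, 4 of 33 member bins differed by at least 0.01 (12.0% of all bins), all higher in Suv39h WT (5.68%) and all on chromosome 11. They were the bins of Krtap31-1 (0.0240), Krt33a (0.0163), Krtap2-4 (0.0111) and Krt12, the last just past the threshold. The chromosome 11 Krtap bins averaged -0.0218 to -0.0145 in the 4 Setdb1 libraries and -0.0119 to -0.0106 in the 4 Suv39h libraries, without overlap. Of these 5 bins, only Krtap31-1 separated the lines by itself. The means of the whole chromosome 11 cluster did not overlap either, while those of the chromosome 15, 16 and 7 clusters and of all 33 member bins did. No share over sets of bins of like size was computed. Bin by bin, the 4 Suv39h libraries were above all 4 Setdb1 libraries at Krtap31-1, Krt36, Krtap19-9b and Krtap22-2 (4 of 33, against 6.57% of all bins), and no member was below (6.5% of all bins). The untreated pair rests on 1 library a line, and anything else that separates the 4 Setdb1 from the 4 Suv39h libraries cannot be told apart from the line.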

How the data were processed

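Hi-C was run on 8 mESC groups, 1 library each. The authors mapped DpnII-digested libraries to mm10 with the 4DN Hi-C pipeline (version 43), kept reads with a mapping quality over 10, and took the first eigenvector of the KR-normalised contact matrix in 100-kb bins with Juicer Tools (version not given in the sources used here), in which the A compartment is positive. The deposited files hold this compartment score for each bin, 23988 to 23997 autosomal bins a library, without read counts. The study's read totals were not used here, because they could not be matched to the files, so the depth behind each score is unknown here and no interval for counting error is given. Per the study's methods the Hi-C was repeated, but the sources used here do not tell which repeat, or pool of repeats, a file holds. Scores on each autosome averaged 0, from which the constant subtracted was inferred (its sum of squares falls short of that of a unit vector).

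Bins scored in all 8 libraries (23972) were fitted with limma 3.58.1 in R 4.3.3, with genotype background as a block and UNC0642 as a term, and the line by UNC0642 term added in a second fit. P-values were adjusted by Benjamini-Hochberg over all bins, at 0.05. With 1 library a group, spread came from libraries of other groups on the assumption that effects add, so p-values measure only how these libraries differ. On simulated data with 200 of 23972 bins altered, the fit made 16 false calls beside UNC0642 differences of 0.02 and 5 beside SETDB1 differences of 0.02, and 0 calls when none was altered. Pairs of libraries were compared without a test, by differences of at least 0.01. Values, SDs and ranges over libraries span conditions.

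Values in every library were given for the highest and lowest bin of each cluster, the bins of Krt8 and Krt18, Krt19, Krt5, Krt14, Krt1 and Krt10, the bins with the 2 highest and 2 lowest fitted differences, up to 8 bins of both signs with the widest ranges, and members outside the clusters. Bins named beyond these were chosen after their values were seen. The members, lists and tests were chosen with earlier results of these data known. Promoters came from RefSeq tables, and base composition from the reference genome. Alternatives covered centring, scaling, bin choice, thresholds, model and single libraries. Python 3.11.15, numpy 2.4.6, pandas 2.3.3, scipy 1.17.1 and matplotlib 3.10.9 were used.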

Additional observations from a re-analysis of the deposited data

How the results depend on the processing

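Most values changed little: 52 of the alternative cluster means moved by less than the spread over libraries, 65 of the alternative counts of bins differing by at least 0.01 stayed within 1.5 times, and no alternative gave a limma call among the members. The centring mattered. With the implied chromosome constant added back, the cluster means were 0.00155 on chromosome 11, which turned its sign, 0.0325 on chromosome 15, -0.0110 on chromosome 16 and 0.0318 on chromosome 7. With it subtracted again they were -0.0101, 0.0178, -0.0300 and 0.0136. Leaving out 1 library at a time gave -0.00485 to -0.00363, 0.0243 to 0.0259, -0.0208 to -0.0201 and 0.0222 to 0.0232. With a threshold of 0.02 in place of 0.01, the pair Suv39h DKO + UNC minus Suv39h DKO and the pair Suv39h WT minus Setdb1 WT had 1 member bin each, and the other pairs that had any had 0. With the constant added, Setdb1 KO + UNC minus Setdb1 KO had 1 and Suv39h DKO minus Suv39h WT 1, and with it subtracted Suv39h DKO + UNC minus Suv39h WT + UNC had 3. The lowest adjusted p of a member in limma ranged over the alternatives from 0.508 to 0.9999 for UNC0642, 0.0616 to 0.9998 for SETDB1, 0.355 to 0.766 for SUV39H1/2 and 0.532 to 1.0 for the line by UNC0642 term. Libraries were paired by genotype background in the UNC0642 fit, and without that pairing 2 member bins in place of 5 were higher at an unadjusted limma p under 0.05 (0.951% of all bins in place of 2.3%). By replicate number, no paired analysis was possible because each group holds 1 library. Simulated UNC0642 and SETDB1 differences of 0.01 were not detected, and the other terms were not simulated, so an absent call does not show equal scores.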
